A study of Mus musculus with 15 samples.

Results

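Transcripts of 10 genes that mark macrophages were measured in whole mouse testis at postnatal day 28. The genes were taken by name and found by Ensembl identifier among the 50051 features counted: Cd68, Csf1r, Adgre1, Lyz2, Cd74, H2-Aa, H2-Ab1, Mrc1, C1qa and Ptprc. Fragments on the strand that the RNA-seq kit reads were used, and all 10 genes passed the filter on low counts. The 9 RNA-seq libraries came from 3 wild-type (Chr18+/+), 3 heterozygous (Chr18+/-) and 3 homozygous (Chr18-/-) samples, and the labels name wild-type and heterozygous samples as controls and homozygous samples as KO. All carried the strain label B6D2F1, a cross of C57BL/6 and DBA/2 mice. The altered locus is the chromosome 18 source of pachytene piRNAs, small RNAs that germ cells make in meiosis. The labels used here name neither a promoter nor a Cre. Whether each library is 1 animal is not given in the labels.

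Macrophages are the main resident immune cells of the testis. Interstitial macrophages lie among Leydig cells and carry the colony-stimulating factor receptor CSF1R and the mannose receptor CD206, the product of Mrc1. Peritubular macrophages lie on the seminiferous tubules and are known for high MHC class II, the protein pair that shows peptides from outside the cell to CD4+ T cells. The class II alpha and beta chains of the I-A molecule are encoded by H2-Aa and H2-Ab1, and Cd74 encodes the invariant chain that escorts them to the endosome.

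H2-Aa, Cd74 and Lyz2 differed from wild type in both other genotypes, and the other 7 macrophage genes passed the test in no comparison. H2-Aa fell to 10.2% of the wild-type mean in heterozygotes and 19.3% in homozygotes, and Cd74 to 49.2% and 27.5%. These are levels of counted fragments. The H2 haplotype of each library is not given in the labels, and its part in the H2-Aa values was not tested. Lyz2, which encodes the bacteria-lysing enzyme lysozyme, rose to 147.5% and 135.3%. The 7 genes that did not pass include H2-Ab1 and the macrophage receptors Csf1r, Mrc1 and Adgre1.

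Promoter sequences are shown for H2-Aa, for its class II relative H2-Eb1, which also fell, and for Lyz2, the gene that rose. Each is the 250 bases before the annotated start, 5′ to 3′ on the gene's strand, from RefSeq on GRCm38.p6. Capitals mark 2 sets of letters searched on both strands. CTGATTGG (reverse complement CCAATCAG) is the Y box of class II promoters, and AGGAAGT (reverse complement ACTTCCT) is a form of the site of PU.1, a myeloid transcription factor. The 2 do not overlap each other in these windows.
H2-Aa, chr17:34287824-34288073, minus strand: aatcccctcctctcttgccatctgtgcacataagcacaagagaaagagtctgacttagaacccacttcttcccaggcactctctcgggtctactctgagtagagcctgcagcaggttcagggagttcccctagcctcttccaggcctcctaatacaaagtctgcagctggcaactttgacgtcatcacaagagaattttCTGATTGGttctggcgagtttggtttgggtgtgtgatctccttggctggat
H2-Eb1, chr17:34305617-34305866, plus strand: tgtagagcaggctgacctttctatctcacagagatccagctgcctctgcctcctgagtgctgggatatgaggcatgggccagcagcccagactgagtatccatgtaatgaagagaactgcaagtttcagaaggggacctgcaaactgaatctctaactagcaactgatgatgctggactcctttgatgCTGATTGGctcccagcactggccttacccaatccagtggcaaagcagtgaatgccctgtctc
Lyz2, chr10:117282273-117282522, minus strand: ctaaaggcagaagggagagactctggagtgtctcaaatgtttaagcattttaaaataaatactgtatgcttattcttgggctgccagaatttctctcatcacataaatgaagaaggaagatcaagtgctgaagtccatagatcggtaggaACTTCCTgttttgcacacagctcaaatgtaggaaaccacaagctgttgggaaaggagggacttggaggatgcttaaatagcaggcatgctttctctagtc
Both class II promoters held the Y box letters, which 3.83% of 32851 promoter windows of the same length held. The Y box is by definition a motif of class II promoters, so its presence there is no result about genes that fell. The Lyz2 window held the PU.1 letters, found in 7.69% of windows. RefSeq windows were searched for 5 of the 10 genes, and the PU.1 letters also stood in those of Mrc1 and Ptprc. Windows of Cd74 and Csf1r were left out of the search, and none was found for Adgre1, C1qa and H2-Ab1. Nothing is thus said of the promoters of these genes. The 32851 windows are those searched and not all windows of the genome. A match is a description of letters and not of binding.

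**Figure D1:**
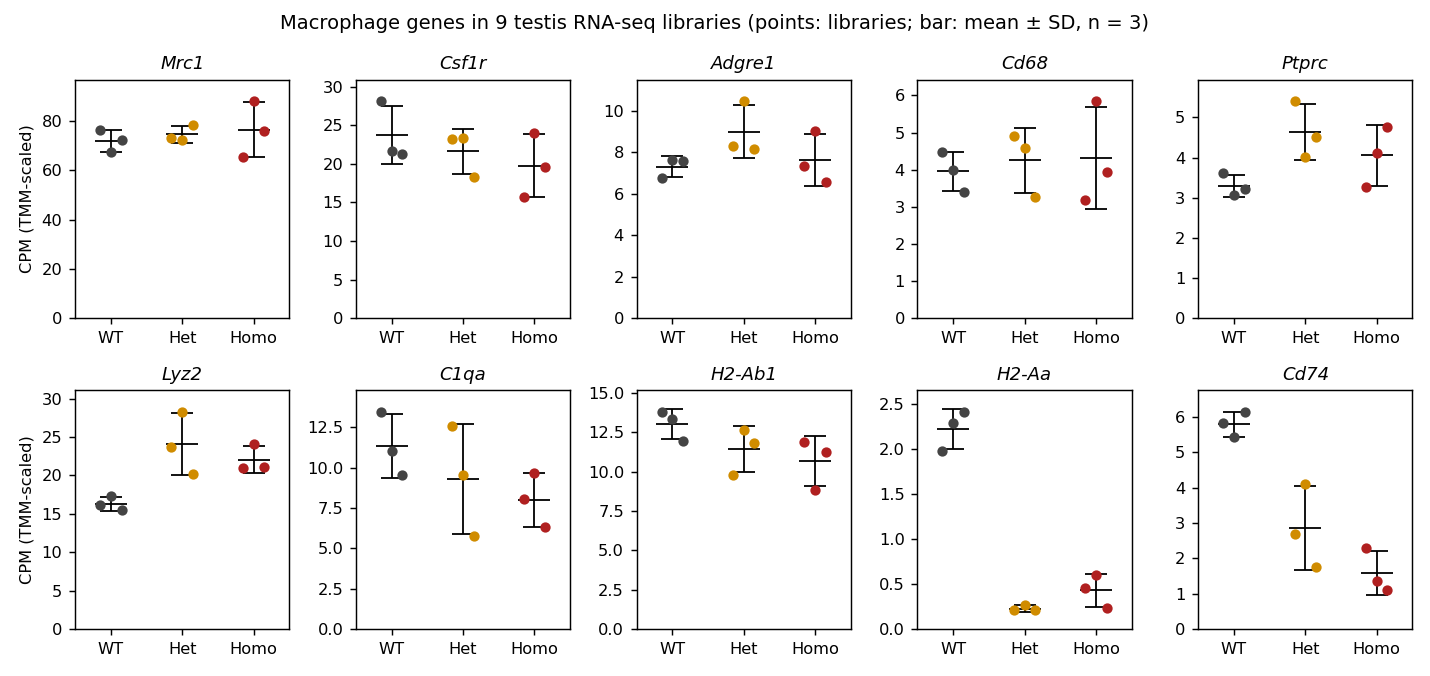
Levels of the 10 macrophage genes (y axis, TMM-scaled CPM, from 0) by genotype (x axis). Each point is 1 library and bars are mean ± SD with n = 3. H2-Aa and Cd74 stood below every wild-type library in all 6 other libraries, Lyz2 stood above, and Mrc1 lay between 65.6 and 88.0 CPM throughout.

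The libraries held 21684791 to 41513634 counted fragments. The precursor transcript of the altered locus had 255.1 to 295.8 CPM in wild type, 133.1 to 204.7 in heterozygotes and 0.116 to 0.21 in homozygotes, so the genotype labels fit the targeted locus in all 9 libraries. Single counts of the 10 genes ran from 6 to 3199 fragments in a library. In bulk tissue, fewer cells of a type and less RNA per cell cannot be told apart. Levels within a library are shares of its RNA, and other cell types shifted with genotype as well. The summed level of 11 elongating spermatid genes was 13560 to 14120 CPM in wild type, 4381 to 11240 in heterozygotes and 7329 to 9880 in homozygotes. Meiotic prophase genes summed to 1211 to 1342 CPM in wild type, 1650 to 2121 in heterozygotes and 1788 to 2044 in homozygotes. The part of these shifts in the results on macrophage genes was not tested.

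Per kilobase of exon, which allows genes to be compared, Lyz2, Mrc1 and C1qa were the highest of the 10 in wild type. Lyz2 had a mean of 12.88 CPM per exon kb (12.2 to 13.7), above Mrc1 at 11.3 (10.6 to 11.96) with no overlap. C1qa, at 10.9 (9.19 to 12.9), overlapped both. H2-Ab1 followed at 7.96, then Csf1r at 4.85, Cd74 at 4.11, Cd68 at 3.15, Adgre1 at 2.25, H2-Aa at 1.19 and Ptprc at 0.18 CPM per exon kb. From C1qa down, no gene's range met that of its neighbour in this order, though Csf1r (4.37 to 5.75) and Cd74 (3.85 to 4.36) lay next to each other. Counts include introns, and per kilobase of gene body the order changed. C1qa led at 3.93 CPM per gene-body kb before Lyz2 at 3.3, the long gene Mrc1 stood behind H2-Ab1, Cd68 and Csf1r at 0.702, and Ptprc was last on both scales (0.0293). In homozygotes the exon-based order of the class II genes spread: H2-Ab1 had a mean of 6.51, Cd74 1.13 and H2-Aa 0.229 CPM per exon kb.

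H2-Aa, the I-A alpha chain gene (chr17:34282744-34287827, minus strand, mm10), had 1.97, 2.29 and 2.41 CPM in the wild-type libraries. Heterozygous libraries had 0.206, 0.267 and 0.206 CPM, and homozygous libraries 0.46, 0.594 and 0.231. These are few fragments: 64, 62 and 53 in the wild-type, 9, 8 and 6 in the heterozygous and 13, 17 and 6 in the homozygous libraries. The wild-type libraries lay above all 6 others, and the heterozygous and homozygous libraries overlapped. The log2 fold change was -3.28 (SE 0.32) in heterozygotes and -2.35 (SE 0.299) in homozygotes against wild type. The adjusted p of edgeR's quasi-likelihood test was 0.000119 and 0.000706. Homozygotes stood at 189.2% of heterozygotes, a log2 difference of 0.93 (SE 0.379) that did not pass (edgeR unadjusted p = 0.0298, adjusted p = 1).

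Cd74, the invariant chain gene (chr18:60803848-60812646, plus strand), had 5.83, 5.43 and 6.14 CPM in wild type. Heterozygous libraries had 2.7, 4.11 and 1.75 CPM, and homozygous libraries 2.3, 1.36 and 1.12. All wild-type libraries lay above all others, while the lowest heterozygous library lay within the homozygous range. The log2 fold change against wild type was -1.02 (SE 0.285, edgeR adjusted p = 0.024) in heterozygotes and -1.86 (SE 0.305, adjusted p = 0.0028) in homozygotes. The heterozygous call depended on single libraries: it was lost without wild-type library 1 or 3 or heterozygous library 1 or 3, with an adjusted p of 0.0661, 0.0604, 0.0527 and 0.0779. The step from heterozygotes to homozygotes, -0.83 (SE 0.311), did not pass (edgeR unadjusted p = 0.0197, adjusted p = 1). Cd74 lies 6.22 Mb from the altered locus on the same chromosome. Within 1 Mb of Cd74, a window chosen after the data were seen, 28 features were tested. Against wild type 17.9% passed in heterozygotes (1 higher, 4 lower) and 10.7% in homozygotes (1 higher, 2 lower). Of all features 23.9% and 20.8% did.

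H2-Ab1, which encodes the beta chain that pairs with the H2-Aa product, lay in a narrower range. Its libraries had 13.8, 13.3 and 11.96 CPM in the wild-type, 9.79, 12.7 and 11.8 in the heterozygous and 11.9, 8.85 and 11.2 in the homozygous libraries. The homozygous libraries lay below all wild-type libraries, but the log2 fold change of -0.29 (SE 0.141) did not pass (edgeR adjusted p = 0.157). In heterozygotes it was -0.19 (SE 0.14, adjusted p = 0.334). H2-Aa amounted to 14.3 to 20.2% of the H2-Ab1 level in wild type, 1.74 to 2.11% in heterozygotes and 2.06 to 6.72% in homozygotes. The partner chain genes thus did not move alike.

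**Figure D2:**
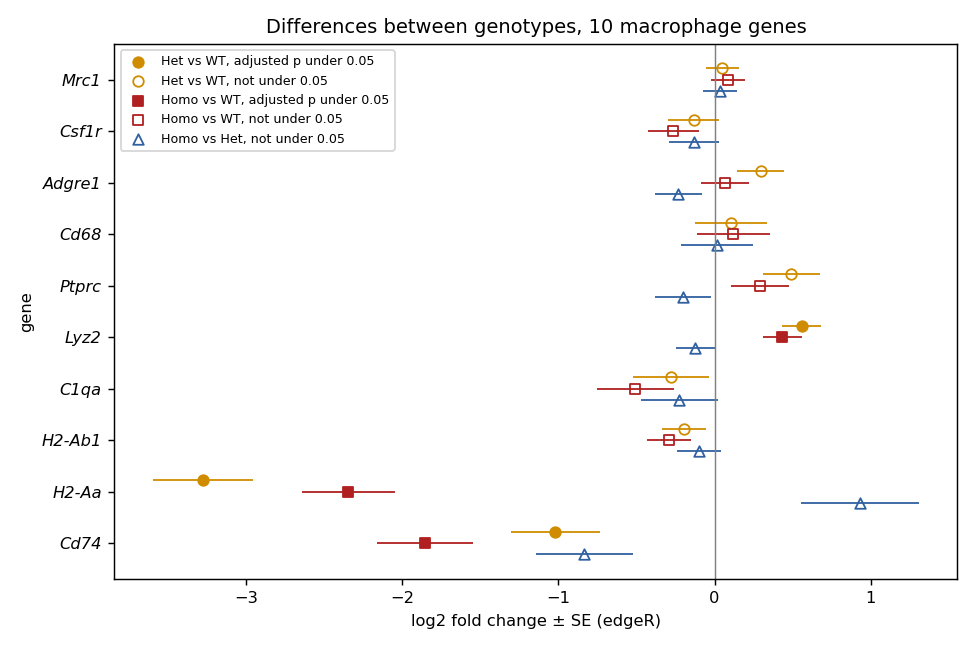
Log2 fold changes from edgeR (x axis, bars are SE) for the 10 genes (y axis) in the 3 comparisons. Filled markers have an adjusted p under 0.05: Lyz2 on the right and Cd74 and H2-Aa on the left, each against wild type only.

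Lyz2 (chr10:117277334-117282274, minus strand) was the 1 gene of the 10 that rose. Its level was 16.1, 17.3 and 15.5 CPM in the wild-type, 23.7, 28.2 and 20.2 in the heterozygous and 21.0, 24.1 and 21.1 in the homozygous libraries. No wild-type library reached any of the other 6, and the heterozygous range enclosed the homozygous one. The log2 fold change was 0.56 (SE 0.125, edgeR adjusted p = 0.00992) in heterozygotes and 0.43 (SE 0.126, adjusted p = 0.0304) in homozygotes. The homozygous call was lost when any of 5 single libraries was left out (wild type 1, 2 or 3, homozygous 2 or 3), with an adjusted p of 0.0741, 0.0555, 0.0921, 0.117 and 0.0684. Homozygotes and heterozygotes differed by -0.12 (SE 0.124). Lyz1, the near copy of Lyz2 in the neighbouring gene, is known from intestinal Paneth cells, and fragments that match both were not counted.

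Among the receptors, Mrc1 had the highest counts and the steadiest level. It lay at 72.0 ± 4.4 CPM in wild type (SD, n = 3), 74.7 ± 3.37 in heterozygotes and 76.5 ± 11.2 in homozygotes. The log2 fold change of Mrc1 was 0.05 (SE 0.107) and 0.09 (SE 0.107) against wild type. Csf1r, the receptor on which macrophage survival depends, had 28.1, 21.7 and 21.3 CPM in the wild-type, 23.3, 23.4 and 18.3 in the heterozygous and 15.8, 23.95 and 19.6 in the homozygous libraries. The 3 groups of Csf1r overlapped, and -0.13 (SE 0.162) and -0.27 (SE 0.163) did not pass (edgeR adjusted p = 0.585 and 0.266). Csf1r lies 5.9 Mb from the altered locus.

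Adgre1 encodes F4/80, the classic mouse macrophage surface marker. Its level was 6.75, 7.61 and 7.6 CPM in the wild-type, 8.33, 10.5 and 8.18 in the heterozygous and 7.33, 9.02 and 6.58 in the homozygous libraries. Heterozygous libraries lay above wild type without overlap, but 0.3 (SE 0.15) did not pass (edgeR adjusted p = 0.168), and homozygous libraries overlapped both groups. Ptprc, which encodes CD45 of all white blood cells, had 3.61, 3.07 and 3.23 CPM in the wild-type, 5.4, 4.01 and 4.5 in the heterozygous and 3.26, 4.13 and 4.77 in the homozygous libraries. For Ptprc too the heterozygous libraries stood above wild type, and the log2 fold change of 0.49 (SE 0.181) did not pass (edgeR adjusted p = 0.0663; 0.0363 without scaling). In homozygotes it was 0.29 (SE 0.184).

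Cd68, a lysosomal membrane protein gene, showed wide spread in homozygotes at 3.19, 5.84 and 3.93 CPM, around 4.47, 3.99 and 3.41 in wild type and 4.92, 4.58 and 3.27 in heterozygotes. The Cd68 groups overlapped fully (log2 fold change 0.1, SE 0.23, and 0.12, SE 0.233). C1qa encodes the A chain of C1q, the first complement component, which macrophages make. Its level was 13.4, 11.1 and 9.55 CPM in the wild-type, 12.6, 9.56 and 5.78 in the heterozygous and 8.04, 9.65 and 6.31 in the homozygous libraries. The ranges overlapped, and -0.51 (SE 0.247) in homozygotes did not pass (edgeR adjusted p = 0.163).

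Over the 10 genes, 1 rose and 2 fell in heterozygotes against wild type, with a median log2 fold change of -0.04. Of all 20782 features tested, 11.1% rose and 12.9% fell, with a median near 0 (-0.002). In homozygotes against wild type 1 rose and 2 fell with a median of -0.1, where 9.68% of all features rose and 11.1% fell (median -0.015). The share of macrophage genes called is thus close to the background. The groups did not overlap for 5 genes in heterozygotes and 4 in homozygotes, against 42.1% and 42.6% of all features. Both comparisons share the wild-type libraries. Between homozygotes and heterozygotes no macrophage gene passed in edgeR, 2 had an unadjusted p under 0.05 (Cd74 and H2-Aa), and none passed in DESeq2. Of all features 0.0144% rose and 0.0144% fell there, and none of the 10 genes separated the groups, where 8.31% of features did.

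Summed over the 10 genes, the level was 153.2 to 170.3 CPM in wild type, 152.5 to 169.6 in heterozygotes and 138.7 to 175.5 in homozygotes, and the ranges overlapped. The 3 class II genes summed to 20.5 to 21.6, 12.7 to 17.0 and 10.8 to 14.6 CPM. The 7 others summed to 132.1 to 148.7, 138.7 to 152.5 and 124.1 to 164.7 CPM. Within a library, class II genes thus amounted to 14.5 to 15.9% of the other macrophage genes in wild type, 8.39 to 11.2% in heterozygotes and 6.56 to 11.8% in homozygotes. This ratio does not depend on the scaling of libraries, and wild type lay above both other groups.

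The class II pathway was followed in 14 further genes, of which 11 were tested. In heterozygotes 1 rose and 3 fell, and in homozygotes 0 rose and 3 fell, with medians of -0.33 and -0.43; the shares of all features were 11.1% higher and 12.9% lower in heterozygotes, and 9.68% and 11.1% in homozygotes. The summed level of the 14 genes overlapped between groups, at 59.9 to 67.8 CPM in wild type, 55.6 to 63.7 in heterozygotes and 57.2 to 63.4 in homozygotes. H2-Eb1, the beta chain of the second class II molecule I-E, had 1.97, 1.66 and 1.59 CPM in the wild-type, 0.732, 1.1 and 0.516 in the heterozygous and 0.885, 0.629 and 0.616 in the homozygous libraries. H2-Eb1 fell by 1.16 (SE 0.284) and 1.29 (SE 0.293) on the log2 scale (edgeR adjusted p = 0.0145 and 0.0114), and its wild-type libraries stood apart from the rest. H2-DMb1, a chain of the peptide-loading factor DM, fell by 1.1 (SE 0.367) and 1.37 (SE 0.39, adjusted p = 0.0477 and 0.0283) from counts of 15 to 38 in wild type to 5 to 18 in the rest. With both strands summed its direction turned, to 0.49 and 0.25, because the opposite strand held 14 to 20 fragments in wild type and 25 to 60 in the other libraries. Rfxank, a subunit of the RFX factor that binds class II promoters, fell by 0.55 and 0.53 (SE 0.129 and 0.13, adjusted p = 0.0122 and 0.0155). H2-Ob, a chain of the DM regulator DO known from B cells, rose in heterozygotes by 0.7 (SE 0.231, adjusted p = 0.0445), and 0.29 in homozygotes did not pass. Ciita, the master activator of class II genes, lay under the filter with means of 0.135, 0.132 and 0.096 CPM. H2-Ea-ps, the I-E alpha chain gene, which C57BL/6 mice do not express and DBA/2 mice do, had 0.504 ± 0.213, 0.389 ± 0.128 and 0.227 ± 0.0664 CPM (SD, n = 3) and passed in no comparison.

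**Figure D3:**
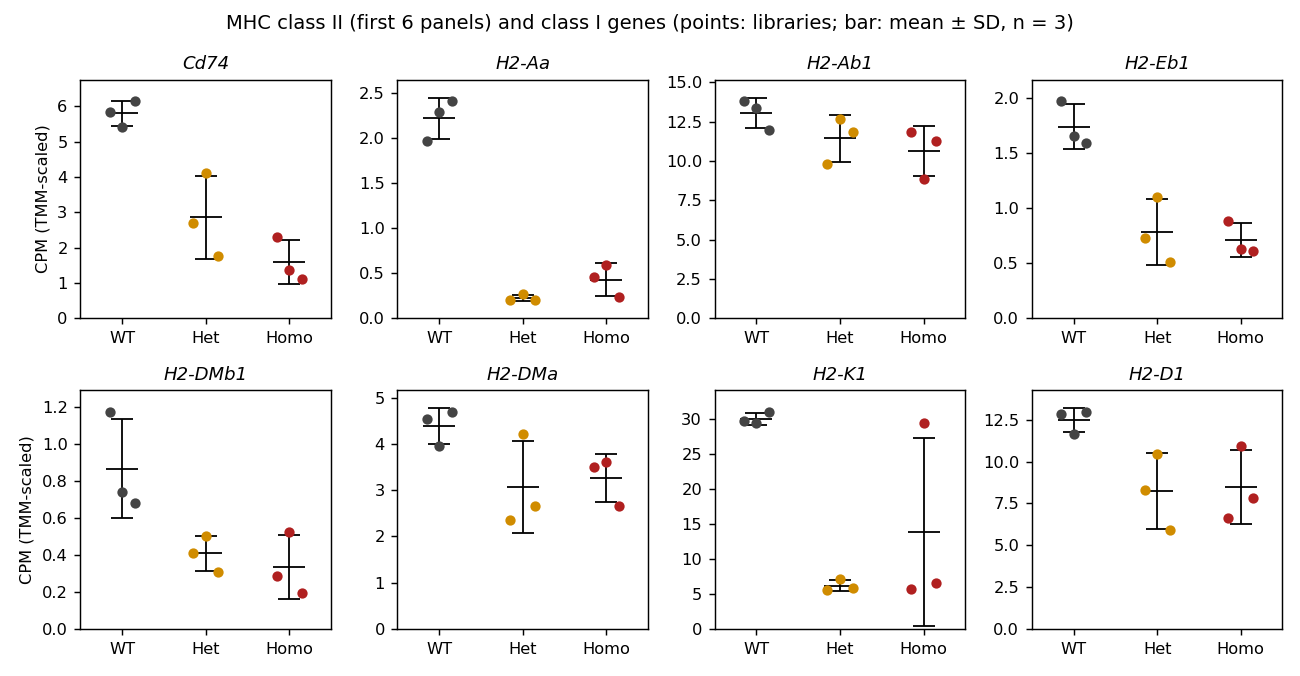
CPM (y axis, TMM-scaled, from 0) of 6 class II genes and the class I genes H2-K1 and H2-D1 by genotype (x axis), with points for libraries and bars for mean ± SD (n = 3). H2-K1 splits the homozygous libraries: library 2, at 29.4 CPM, stands at the wild-type level and the others lie at 5.63 and 6.55.

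MHC class I genes, which serve presentation in nearly all cells, were described beside them because several lie in the same H2 region of chromosome 17. Of 10 tested, 3 fell in heterozygotes and 2 in homozygotes, none rose, and the medians were -0.31 and -0.33. Among all features 12.9% and 11.1% fell. H2-K1, a class I heavy chain gene, had 29.6, 29.3 and 30.9 CPM in wild type and 5.58, 7.12 and 5.81 in heterozygotes (log2 fold change -2.28, SE 0.479, edgeR adjusted p = 0.00782). Its homozygous libraries had 5.63, 29.4 and 6.55 CPM, and the log2 fold change of -1.11 (SE 0.455) did not pass (adjusted p = 0.101). Without homozygous library 2 it was -2.3 (adjusted p = 1.13e-05). For H2-Aa that library, at 0.594 CPM, stood above every other heterozygous and homozygous library and below the wild-type ones at 1.97 to 2.41. Its Cd74 level, 1.36 CPM, lay between those of the other homozygous libraries. The class I gene H2-D1 had 10.9 CPM there, and 6.62 and 7.85 in the other homozygous libraries. Its range was 11.7 to 13.0 CPM in wild type and 5.91 to 10.5 in heterozygotes. Nlrc5, the activator of class I genes, fell by 0.99 and 1.44 (SE 0.251 and 0.261, adjusted p = 0.0162 and 0.00459), and Tapbp, which encodes the loading protein tapasin, fell by 0.51 and 0.47 (SE 0.14 and 0.14, adjusted p = 0.0215 and 0.0353). B2m, the class I light chain gene on chromosome 2, had 0.02 and 0.04 (SE 0.172 and 0.173). Within 1 Mb of H2-Aa, 41.7% of 96 tested features passed in heterozygotes (7 higher, 33 lower) and 37.5% in homozygotes, against 23.9% and 20.8% of all features. This window, too, was chosen after the data were seen. Around the macrophage genes outside the H2 region, the share ran from 11.1% (Ptprc) to 41.2% (Adgre1, also on chromosome 17) in heterozygotes. In homozygotes it ran from 0% (Ptprc) to 35.3% (Adgre1). C57BL/6 and DBA/2 mice carry different H2 haplotypes, the haplotype of each library is not given in the labels, and its part in the H2 values was not tested.

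Interferon gamma is the classic inducer of class II, and 9 genes of a list of its targets and its receptor genes Ifngr1 and Ifngr2 were tested. In heterozygotes 2 rose and 0 fell, and in homozygotes 3 rose and 0 fell (medians 0.28 and 0.29). Of all features, 11.1% and 9.68% rose and 12.9% and 11.1% fell. Iigp1, a GTPase induced by interferon, rose by 0.86 and 0.71 (SE 0.221 and 0.224, edgeR adjusted p = 0.0174 and 0.042), and Gbp3, another such GTPase, rose in homozygotes by 0.98 (SE 0.279, adjusted p = 0.0289).

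Calls among other macrophage receptors and markers showed no common direction. The list summed to 302.5 to 359.3 CPM in wild type, 249.3 to 305.7 in heterozygotes and 244.8 to 289.4 in homozygotes. Homozygotes thus lay below wild type without overlap in this sum, in which Aif1 had the highest level. Of 16 genes tested, 1 rose and 1 fell in heterozygotes and 2 rose and 1 fell in homozygotes, with medians of 0.06 and -0.03. The shares of all features were 11.1% higher and 12.9% lower in heterozygotes, and 9.68% and 11.1% in homozygotes. Mertk, the receptor for engulfing dying cells, which Sertoli cells express too, had 13.4, 12.3 and 13.6 CPM in the wild-type, 20.8, 20.8 and 23.1 in the heterozygous and 13.5, 20.6 and 20.5 in the homozygous libraries. Mertk rose by 0.72 (SE 0.148) and 0.47 (SE 0.149) against wild type (edgeR adjusted p = 0.00733 and 0.0417), although homozygous library 1 lay in the wild-type range. Lyve1, a hyaluronan receptor of resident macrophages and lymphatic vessels, rose in homozygotes by 0.89 (SE 0.267, adjusted p = 0.0353), from 0.594 ± 0.133 to 1.09 ± 0.0292 CPM (SD, n = 3). Aif1, which encodes the macrophage protein IBA1, fell by 0.44 and 0.48 (SE 0.137 and 0.137, adjusted p = 0.0376 and 0.03). At a mean of 204.8 CPM in wild type Aif1 stood above the mean sum of the 10 macrophage genes, 159.0. Which cells of the testis this Aif1 RNA came from was not tested. Cd163, the haemoglobin scavenger receptor, had 0.29 and 0.16 and did not pass.

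The growth factors of macrophages gave no call. None of 5 tested ligands and receptors of the colony-stimulating factors passed in edgeR. Against wild type 23.9% of all features passed in heterozygotes and 20.8% in homozygotes, so 0 of 5 is no result about this list. Csf1, the main ligand of CSF1R, had 8.84 ± 0.752, 8.62 ± 1.38 and 8.85 ± 1.06 CPM (SD, n = 3). Of 12 myeloid transcription factors and adapters, 0 passed in heterozygotes and 1 fell in homozygotes, where 11.1% of all features fell. Spi1, which encodes PU.1, had -0.25 (SE 0.282) and -0.17 (SE 0.286).

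Of 10 complement genes beside C1qa, 2 fell in heterozygotes and the count in homozygotes was 2 as well. For this list and the next 2, the shares of all features that fell were 12.9% in heterozygotes and 11.1% in homozygotes. C1qb, the partner of C1qa in C1q, had 12.6, 9.35 and 9.28 CPM in the wild-type, 7.37, 7.65 and 6.05 in the heterozygous and 6.34, 5.7 and 6.01 in the homozygous libraries. C1qb fell by 0.57 (SE 0.15) and 0.8 (SE 0.153), with edgeR adjusted p of 0.019 and 0.00581. C1qc, the third chain, had -0.39 (SE 0.269) and -0.7 (SE 0.275) and did not pass. C4b, a complement gene of the H2 region, fell by 1.31 and 1.34 (SE 0.179 and 0.181, adjusted p = 0.00114 and 0.00103). Of 11 lysosomal genes, 2 fell in heterozygotes and 1 in homozygotes, and none rose beside Lyz2. These were the tetraspanin gene Cd63, which fell by 0.49 and 0.39 (SE 0.128 and 0.129, adjusted p = 0.0191 and 0.0479), and, in heterozygotes, the hexosaminidase gene Hexa, by 0.32 (SE 0.09, adjusted p = 0.0235). Of 6 tested cytokine genes 1 fell in each comparison: Tgfb1, which many cells express, by 0.85 and 0.94 (SE 0.186 and 0.19, adjusted p = 0.00941 and 0.00702).

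**Figure D4:**
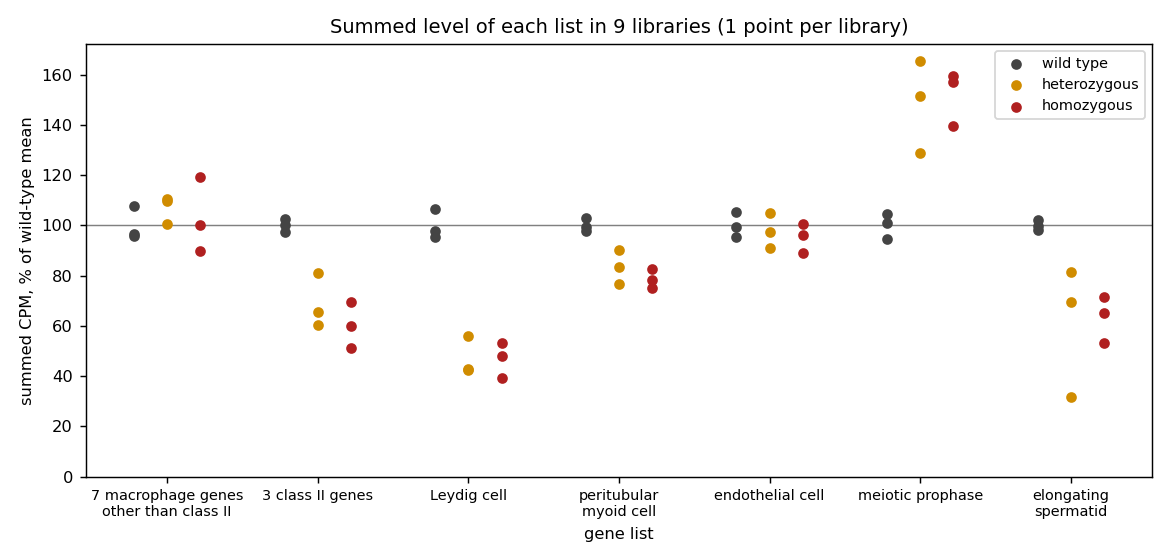
Summed CPM of each gene list as a percent of its wild-type mean (y axis, from 0), with 1 point per library, by list (x axis) and genotype (colour). The 7 macrophage genes outside class II and the endothelial genes spread around 100. The 3 class II genes (H2-Aa, H2-Ab1 and Cd74), Leydig, peritubular myoid and elongating spermatid genes lie below 100 in all 6 non-wild-type libraries. Meiotic genes lie above 100 in those libraries.

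Markers of other immune cells ranged from 0 to levels above some of the macrophage genes. NK cell genes (0 of 6 tested) summed to 0.091 to 0.148 CPM in wild type, 0.343 to 0.516 in heterozygotes and 0.212 to 0.462 in homozygotes. The B cell receptor gene Cd79a was at 0 in 7 of the 9 libraries, while Pax5, a B cell transcription factor, reached 10.2 ± 1.89 CPM in wild type. The neutrophil gene Retnlg was at 0 in all 9 libraries, Ly6g at 0 in 8 of them, and the granule gene Mpo had 1.49 ± 0.0694 CPM in wild type. Of 6 tested T cell genes 1 fell in heterozygotes, where 12.9% of all features fell, and none passed in homozygotes in edgeR. The T cell list summed to 10.1 to 14.7, 6.36 to 13.8 and 9.03 to 10.6 CPM. Cd5, a T cell surface receptor gene, fell in heterozygotes by 3.43 (SE 0.872, edgeR adjusted p = 0.0167) from 0.343 ± 0.105 to 0.0229 ± 0.0396 CPM (SD, n = 3). This call lies near the floor, as the heterozygous libraries had 0.0686, 0 and 0 CPM of Cd5. Homozygous libraries had 0.354, 0.035 and 0.116 CPM. The T cell receptor subunit genes stood far apart in wild type, with Cd3d at 8.07 and Cd3e at 0.192 CPM, and the kinase gene Lck had 2.21 CPM. Dendritic cells also carry class II, and their list summed to 17.0 to 19.6, 17.5 to 20.6 and 18.7 to 22.3 CPM. None of 4 dendritic cell genes tested passed in edgeR, where 23.9% and 20.8% of all features passed against wild type. In wild type Zbtb46, a dendritic cell transcription factor that endothelium shares, had 14.0 ± 0.398 CPM (SD, n = 3). The growth factor receptor gene Flt3 had 3.55 ± 0.867 CPM there.

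The Leydig cells that interstitial macrophages adjoin differed as well. Of 6 tested Leydig genes, 5 fell in each comparison against wild type (medians -1.08 and -1.09), where 12.9% and 11.1% of all features fell. Their sum was 1033 to 1155 CPM in wild type, 459.6 to 604.7 in heterozygotes and 422.6 to 575.2 in homozygotes. Endothelial genes, of the same interstitium, summed to 46.9 to 51.9, 44.9 to 51.6 and 43.9 to 49.6 CPM. Of the endothelial genes 0 of 9 passed, where 23.9% and 20.8% of all features passed against wild type. The sum of the 3 class II macrophage genes lay below wild type as the Leydig sum did. Sums of peritubular myoid, class I, cytokine and elongating spermatid genes lay below wild type in both groups too. Peritubular myoid genes, for example, had 360.4 to 378.8, 282.8 to 332 and 275.8 to 304.5 CPM. The sums of the 7 other macrophage genes and of the 14 further class II pathway genes overlapped wild type in both groups. The part of the Leydig difference in the class II values was not tested.

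The deposited small RNA libraries, made from periodate-treated RNA of 3 heterozygous and 3 homozygous testes, held next to no sense reads of these genes. H2-Ab1 had 7 reads over the 6 libraries, Mrc1 6, Cd68, Lyz2 and Cd74 1 each, and Csf1r, Adgre1, H2-Aa, C1qa and Ptprc 0, in libraries of 939641 to 1861402 counted reads. None of the 10 genes passed the filter, so the main fit tested none of them. With no filter 5 entered the edgeR fit, 0 passed and 0 had an unadjusted p under 0.05, at counts too low to show a difference.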

How the data were processed

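RNA-seq (9 libraries) and small RNA (6 libraries) were deposited by the authors as raw counts per feature. RNA was ribosome-depleted and made into stranded libraries, per the labels' protocols. Per the file headers, featureCounts (versions 1.6.1 and 1.6.2) counted fragments over whole gene bodies, introns included, on an annotation of 49585 genes and 466 piRNA precursors, and left out fragments shared by overlapping features. Unspliced RNA therefore adds to long genes, and genes inside another of the same strand, such as Itgam and Irf8, are at 0. The submitters' processing notes name the mm10 and mm9 builds without roles. Coordinates are those of the files, in mm10.

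Features were filtered with filterByExpr, scaled by TMM and tested in 1 fit of all 9 libraries with edgeR 4.0.16 (quasi-likelihood, R 4.3.3), with Benjamini-Hochberg adjustment over 20782 features and a threshold of 0.05. CPM are counts relative to the scaled library size. SE is the log2 fold change divided by the square root of F. The 24 other gene lists hold 228 entries. The members and lists were chosen with earlier results of these data known. Of each list, up to 4 genes with the lowest adjusted p under 0.05 were eligible to be named, besides lineage markers and H2-Ea-ps. Genes named outside this rule (Ciita, B2m, Csf1, Spi1, C1qc, Cd163, Cd3d, Cd3e, Lck, H2-D1) were chosen after their values were seen. The fit was checked on simulated data. Symbols were found for 49326 genes. The labels do not say whether replicates were separate animals, so p-values measure only the spread between these samples. Replicate pairs differed beyond sampling noise (chi-square per degree of freedom 2.96 to 46.8). Alternatives were DESeq2 1.42.0, RLE and no scaling, other filters, both strands summed, a 2-fold limit, only the groups compared, each library left out and a replicate block for small RNA. Genes withheld from this text are counted in their lists and not reported here by name.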

Additional observations from a re-analysis of the deposited data

How the results depend on the processing

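The counts of macrophage genes called stayed at 2 to 3 for both comparisons against wild type and at 0 between homozygotes and heterozygotes under every alternative fitted, but they were not always the same genes. Without scaling 2 rose and 1 fell in heterozygotes (Ptprc gained, Cd74 lost), and Lyz2 in homozygotes was lost without each of 5 libraries. The calls of H2-Aa against wild type (15 refits each), Cd74 in homozygotes and Lyz2 in heterozygotes (16 each) held in all of those. A 2-fold limit, which is no refit, removed Lyz2 from both comparisons and left 0 higher and 2 lower. A mean of at least 1 CPM removed H2-Aa from the test. Without scaling Cd74 in heterozygotes had -0.92 (adjusted p = 0.0502), and the median of all features moved from -0.002 to 0.1. Without scaling, homozygotes against heterozygotes gave -0.042 for Cd68 and -0.018 for Mrc1. With both strands summed H2-DMb1 turned to 0.486 and 0.25. Over all alternatives, single libraries left out included, heterozygotes against wild type ran from -0.02 to 0.257 for Cd68 and from -0.205 to 0.016 for Csf1r. Homozygotes against wild type ran from -0.163 to 0.297 for Cd68, from -0.071 to 0.159 for Adgre1 and from -0.028 to 0.183 for Mrc1. Between homozygotes and heterozygotes the ranges were -0.265 to 0.195 for Cd68, -0.294 to 0.007 for Csf1r, -0.471 to 0.062 for C1qa, -0.234 to 0.005 for Lyz2, -0.202 to 0.019 for H2-Ab1, -0.078 to 0.133 for Mrc1 and -0.017 to 1.549 for H2-K1. The cause was not tested. The replicate block in small RNA gave 0 macrophage genes, but none entered either fit, so this count says nothing of stability. Correlations of same-numbered small RNA deviations were -0.233, 0.075 and -0.226, and those of other pairs ran from -0.357 to 0.333. With deviations from means of 3 libraries, this cannot decide whether the numbers pair the libraries. Depth limits H2-Aa, whose lower libraries held 6 to 17 fragments.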

Other observations

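Csf1r carried RNA of its opposite strand: 116 to 301 fragments per library, 1748 in all, or 29.9% of its kit-strand count. The other 9 macrophage genes had 0.362 to 5.29%, and whole libraries 8.81 to 10.7%. Hmgxb3, on that strand, overlaps 3.28% of Csf1r.

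Features were ranked by root mean square distance of centred log2 CPM from the mean profile of the 10 genes over the 9 libraries. Only features in no gene list were ranked, with a mean of at least 1 CPM and an SD at least that of the profile (0.185). The nearest were Arl4d (0.0515), Cuedc2 (0.0556), Acsbg1 (0.0589), a feature without a symbol (0.0622) and Irf2bp2 (0.0643). H2-Aa and Cd74 varied most in log2 CPM (SD 0.896 and 0.783, the others 0.123 to 0.391), and the 10 genes did not move alike. Likeness to their mean profile is thus not likeness to each gene. Among the 10 themselves Csf1r lay nearest to the mean profile (0.132) and H2-Aa farthest (0.728).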
